A study of Homo sapiens with 6 samples.

Results

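The autophagy machinery and its cargo receptors were followed through 39 genes, chosen by name, among 21619 genes counted in breast cancer cells given CXCL12 and IGF1. They comprise 4 members of the initiation kinase complex and 6 of the class III PI3K complex and its regulators. A further 8 serve lipid transfer, membrane supply and PI3P binding, and 8 serve ATG12 and ATG8 conjugation (the conjugation genes). The rest are 5 ATG8-family genes, 6 cargo receptors and 2 other ATG8-binding proteins, TP53INP1 and TP53INP2. All 39 passed the filter on low counts, with 13548 genes tested in all.

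Autophagy delivers cytoplasm, organelles and protein aggregates to the lysosome. A kinase complex built on ULK1 starts it, the lipid kinase PIK3C3 and lipid-transfer proteins grow a cup-shaped membrane, and ubiquitin-like conjugation attaches ATG8-family proteins to that membrane. Cargo receptors then tie their load to the ATG8 proteins. Growth factor signalling through AKT and mTORC1 is known to restrain ULK1 and to keep FOXO and TFEB-type transcription factors, which switch on several autophagy genes, out of the nucleus. Serum starvation relieves this restraint.

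The cells were MDA-MB-231, an established human line of triple-negative breast cancer, carrying ribosomal protein L10a fused to EGFP. In translating ribosome affinity purification (TRAP), an antibody to GFP pulls down the tagged ribosomes, and the polyadenylated RNA bound to them is sequenced. Every culture spent 24 h in 0.2% serum. A further 6 h followed without added factors (untreated), with 30 ng/mL of the chemokine CXCL12 plus 10 ng/mL of the growth factor IGF1 (lower dose), or with 300 ng/mL CXCL12 plus 100 ng/mL IGF1 (higher dose), with 2 biological replicates, a and b, in each group. The factors were only given together, and total RNA was not analysed here, so mRNA abundance and ribosome association cannot be told apart. Nor can fewer cells with an mRNA be told from less of it per cell. The sources used here do not say whether the engineered cells were 1 clone.

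Each library held 26255079 to 30280322 reads on genes, so 3 reads, the limit that a count of 0 allows for counting error alone, correspond to 0.0991 to 0.114 CPM (counts per 1000000 reads on genes, with library sizes scaled by edgeR's TMM factors in the values below). Most of the defining markers fitted the line. In every library VIM was at 2681 CPM or more, CD44 at 741 CPM or more, and CAV1, AXL and FOSL1 at 468 CPM or more. The epithelial cadherin CDH1 and the hormone receptors ESR1 and PGR were at 0.450 CPM or less. The luminal factor GATA3, listed beforehand as absent or low, was the exception, with 9.40 to 11.03 CPM. The 7 markers of fibroblasts, leukocytes and endothelium summed to 8.64 to 9.02 CPM in untreated, 8.27 to 8.76 CPM in lower dose and 7.81 to 9.06 CPM in higher dose libraries. COL1A1 made up most of this sum, and CD3E and CDH5 were at 0 in every library.

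At the higher dose, 25 of the 39 autophagy mRNAs fell and 5 rose relative to untreated cells (edgeR quasi-likelihood test, Benjamini-Hochberg adjusted p under 0.05 over all genes tested). The falls were 64.1% of the genes, where 28.2% of all genes tested fell. The rises were 12.8%, where 28.1% of all genes rose. Called falls of at least 0.32 on the log2 scale were found for 17 autophagy genes (43.6%) and for 12.9% of all genes. The median log2 fold change was −0.27, beside 0.00 for all genes. The direction differed by role. All 6 cargo receptors and all 8 genes of lipid transfer and PI3P binding fell, whereas 4 of the 8 conjugation genes rose and none of them fell. Among the lipid transfer and PI3P binding genes, TECPR1 was at the edge of the threshold (adjusted p = 0.0430). It did not pass with DESeq2 (adjusted p = 0.231). Outside the conjugation genes, 25 of 31 genes fell (80.6%) and 1, BECN1, rose. This subset leaves out the role in which none fell, so its share of falls is above that of the whole list by construction. These shares describe the list and do not test it as a class. They also depend on which genes were listed. Of 11 other core autophagy genes tested outside the list, 5 rose and 2 fell at the higher dose. The rises include ATG101 of the initiation complex (0.28, adjusted p = 1.65e-08) and NRBF2 of the class III PI3K complex (0.20, adjusted p = 0.000892). WDR45B, which binds PI3P, also rose (0.25, adjusted p = 8.27e-10).

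**Figure D1:**
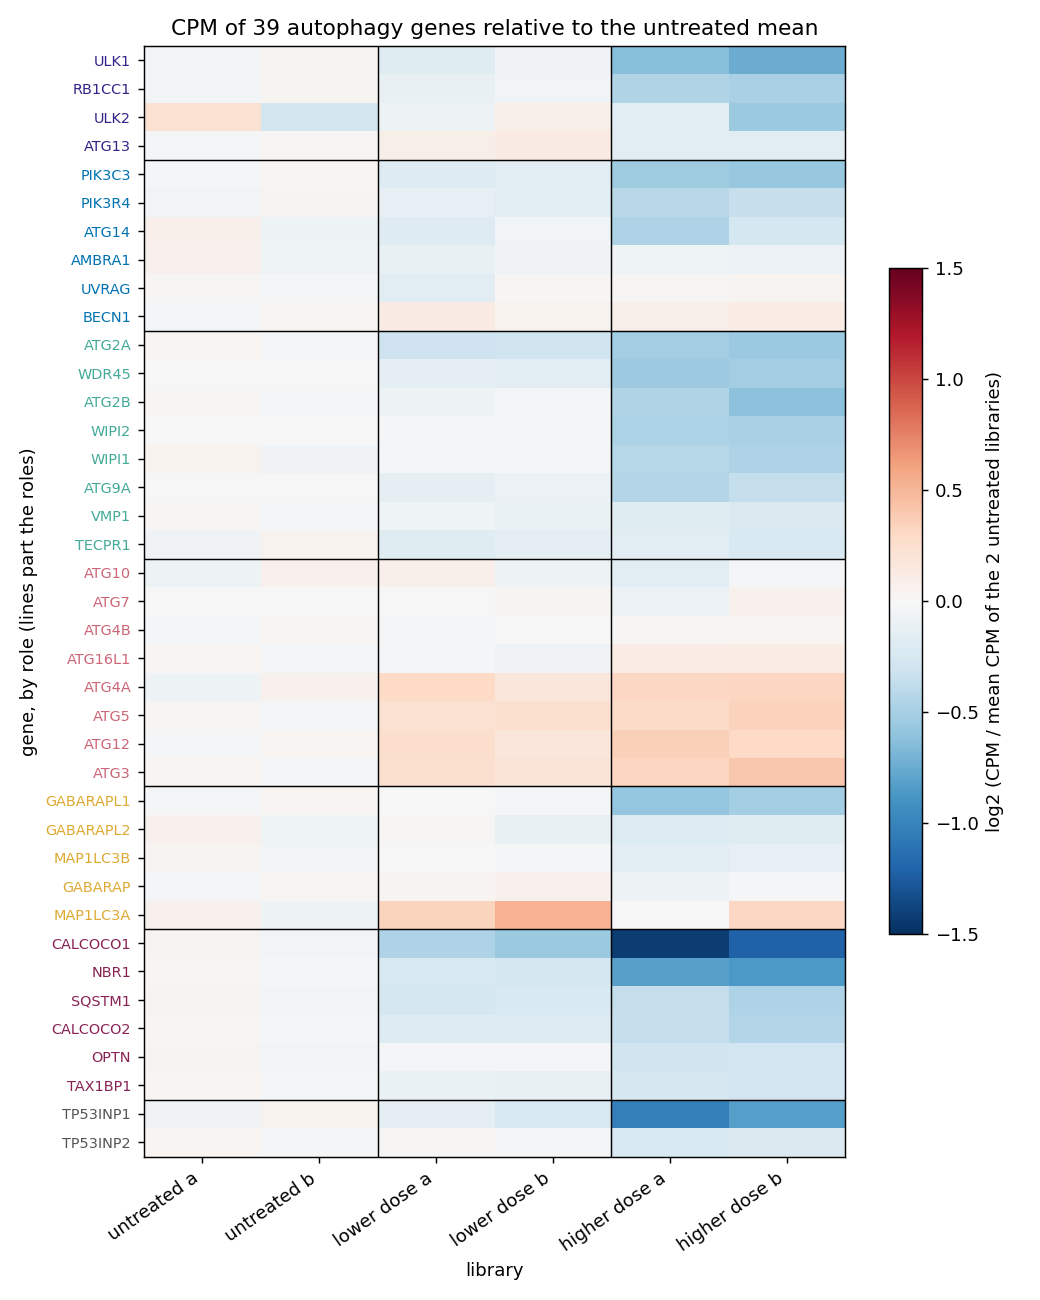
Each cell shows log2 of CPM in 1 library over the mean CPM of the 2 untreated libraries, for 39 genes grouped by role, with libraries in order of dose. The higher dose columns are blue for most genes outside the conjugation genes, and ATG3, ATG4A, ATG5 and ATG12 are red at both doses.

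The largest fall was that of CALCOCO1, a receptor described for turnover of the endoplasmic reticulum and Golgi. It was followed by TP53INP1, a stress protein induced by p53 that binds ATG8 proteins, the cargo receptor NBR1, the initiating kinase ULK1 and the lipid kinase PIK3C3. Promoter windows are shown for NBR1, ULK1 and PIK3C3, from 250 bases before to 50 bases after the RefSeq gene start (300 bases, GRCh38.p14). ATG3, one of the rising genes, is added because it alone among the 34 autophagy genes with a window held an 8-letter TFEB-type element. This addition was made after the search. NBR1 lies at chr17:43170159-43170458 on the plus strand, ULK1 at chr12:131894372-131894671 on the plus strand, PIK3C3 at chr18:41954984-41955283 on the plus strand and ATG3 at chr3:112561913-112562212 on the minus strand. Capitals mark the E-box letters CACGTG and their 8-letter form TCACGTGA.
NBR1: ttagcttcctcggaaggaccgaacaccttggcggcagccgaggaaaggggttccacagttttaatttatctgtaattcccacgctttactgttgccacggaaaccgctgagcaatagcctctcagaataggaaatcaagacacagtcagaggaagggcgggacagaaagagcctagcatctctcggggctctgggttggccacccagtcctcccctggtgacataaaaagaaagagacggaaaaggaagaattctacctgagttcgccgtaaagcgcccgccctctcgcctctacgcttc
ULK1: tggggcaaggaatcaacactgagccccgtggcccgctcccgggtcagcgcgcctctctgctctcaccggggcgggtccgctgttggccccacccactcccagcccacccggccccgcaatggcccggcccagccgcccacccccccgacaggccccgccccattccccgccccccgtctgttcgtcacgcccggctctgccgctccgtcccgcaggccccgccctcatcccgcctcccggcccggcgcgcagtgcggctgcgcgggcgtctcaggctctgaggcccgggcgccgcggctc
PIK3C3: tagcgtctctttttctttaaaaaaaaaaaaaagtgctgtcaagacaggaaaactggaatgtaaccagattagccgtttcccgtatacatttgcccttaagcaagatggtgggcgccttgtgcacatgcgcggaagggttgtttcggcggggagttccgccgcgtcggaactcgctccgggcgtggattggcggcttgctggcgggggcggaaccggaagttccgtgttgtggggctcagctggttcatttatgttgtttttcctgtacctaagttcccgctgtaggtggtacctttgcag
ATG3: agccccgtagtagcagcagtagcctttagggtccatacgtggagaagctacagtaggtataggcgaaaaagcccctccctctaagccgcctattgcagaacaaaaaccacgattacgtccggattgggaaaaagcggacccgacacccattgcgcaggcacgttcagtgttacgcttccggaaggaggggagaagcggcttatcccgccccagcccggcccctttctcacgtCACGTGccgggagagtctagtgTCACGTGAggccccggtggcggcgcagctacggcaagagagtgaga

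Each window was searched on both strands for the FOXO element GTAAACA, for the E-box CACGTG, and for TCACGTGA, which contains the E-box, so that every match of the longer string is also a match of the shorter. None of these strings stood in the NBR1, ULK1 or PIK3C3 windows, which says only that these letters are not there. The ATG3 window held CACGTG at 2 places, 18 bases before and 5 bases after the start base, the second of them inside a TCACGTGA. Windows were found for 34 of the 39 genes. Of these, 1 (2.94%, CALCOCO2) held the FOXO element, as did 3.41% of all 27305 windows of this length. CACGTG stood in 2 (5.88%, ATG3 and ATG14) and in 7.43% of all windows, and TCACGTGA in 1 (2.94%) and in 1.04% of all.

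The cargo receptors link ubiquitinated or otherwise marked cargo to ATG8 proteins. CALCOCO1 had 31.7 and 30.0 CPM untreated, 22.3 and 20.9 CPM with the lower dose and 11.5 and 13.3 CPM with the higher. The libraries of the 3 groups did not overlap and stepped down with dose. Against untreated cells CALCOCO1 fell by 59.6% at the higher dose (log2 fold change −1.31 ± 0.07 SE, adjusted p = 2.75e-23) and by 29.9% at the lower dose (−0.51 ± 0.06, adjusted p = 1.46e-09), and the higher dose was below the lower (−0.80 ± 0.07, adjusted p = 5.86e-13).

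NBR1, a receptor for ubiquitinated aggregates and peroxisomes, had 165 and 160.3 CPM untreated, 138 and 135 CPM with the lower dose and 92.3 and 89.6 CPM with the higher. It stepped down without overlap, by 44.1% at the higher dose (−0.84 ± 0.03, adjusted p = 3.47e-28) and 16.1% at the lower dose (−0.25 ± 0.03, adjusted p = 5.05e-09). SQSTM1, which encodes the receptor p62, was the most abundant of the listed cargo receptors per length, at 226 CPM per kb of transcript in untreated cells. Its libraries had 460 and 435 CPM untreated, 372 and 382 CPM with the lower dose and 348 and 324 CPM with the higher, again without overlap. The log2 fold change was −0.41 ± 0.03 at the higher dose (adjusted p = 1.93e-17) and −0.25 ± 0.03 at the lower (adjusted p = 2.52e-09).

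CALCOCO2, which encodes NDP52, a receptor for bacteria and mitochondria, had 98.5 and 96.1 CPM untreated, 84.9 and 85.2 CPM with the lower dose and 76.7 and 71.7 CPM with the higher. Its libraries stepped down without overlap, with −0.39 ± 0.04 at the higher dose (adjusted p = 2.53e-13) and −0.19 ± 0.04 at the lower dose (adjusted p = 2.61e-05). TAX1BP1, a receptor related to NDP52, also fell at both doses (−0.27 ± 0.03 at the higher dose, adjusted p = 5.98e-10, and −0.11 ± 0.03 at the lower dose, adjusted p = 0.00686). Leaving out untreated a (−0.08, adjusted p = 0.103) or lower dose b (−0.10, adjusted p = 0.0520) ended the lower dose call of TAX1BP1. OPTN, the mitophagy receptor optineurin, had 107 and 107 CPM with the higher dose, against 135 and 127 CPM untreated (−0.29 ± 0.03, adjusted p = 1.87e-10). At the lower dose OPTN had 128 and 128 CPM, within the untreated range (−0.03 ± 0.03, adjusted p = 0.596).

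**Figure D2:**
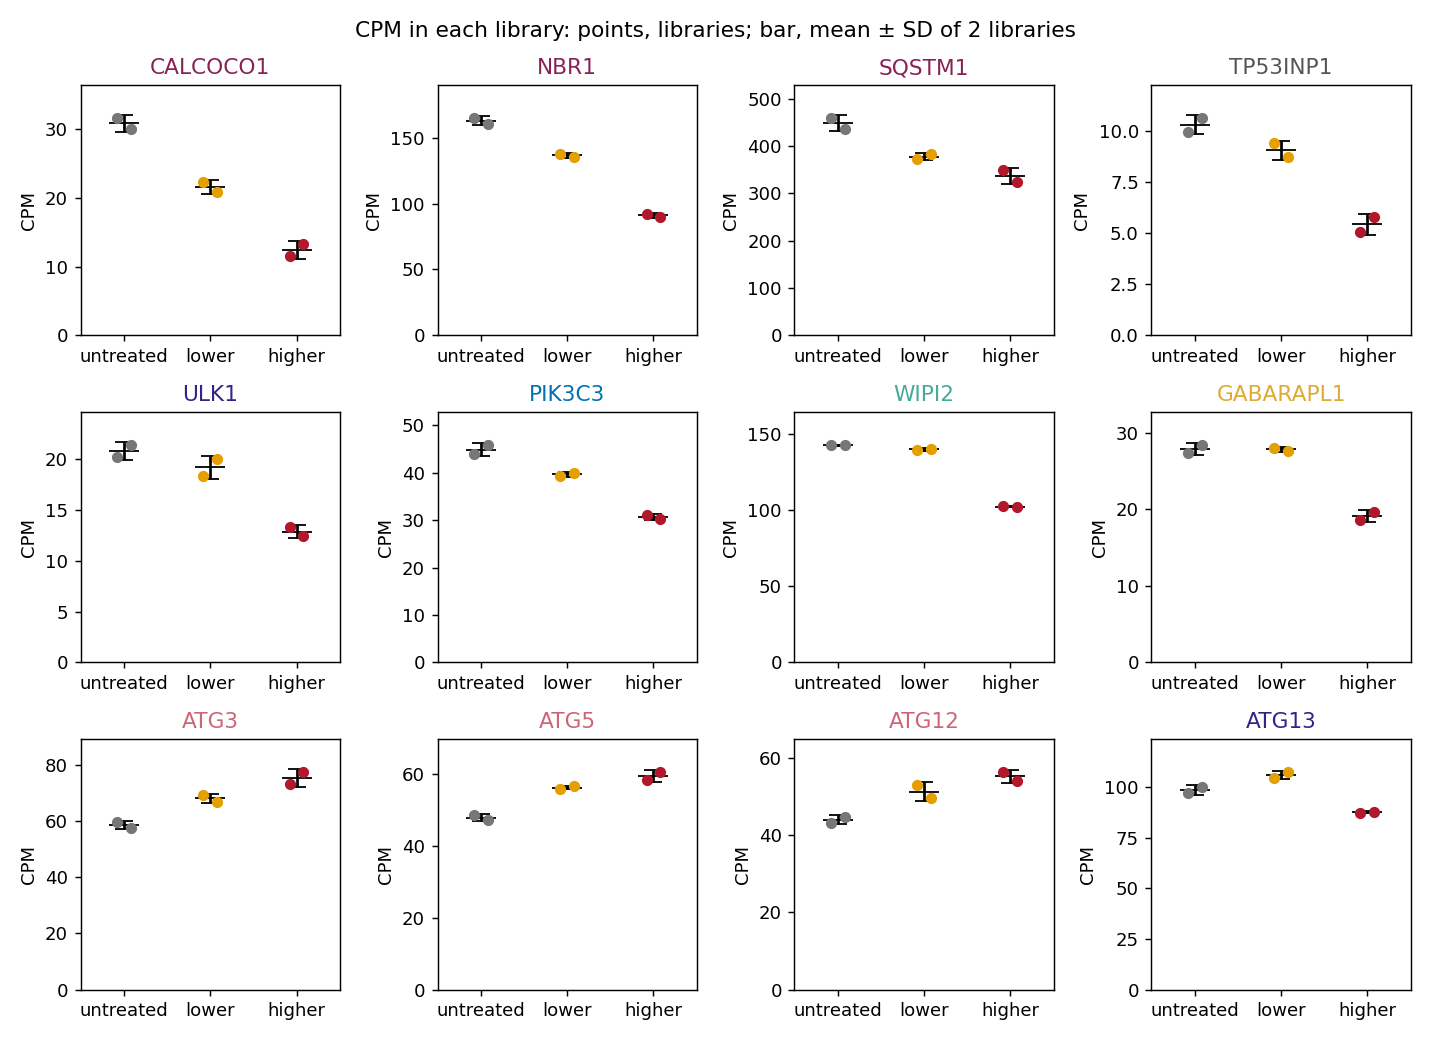
CPM of 12 genes in each library, by dose, with the axis of each panel starting at 0. Points are libraries, and bars give the mean ± SD of 2 libraries. CALCOCO1 falls to 11.5 and 13.3 CPM at the higher dose, ATG3, ATG5 and ATG12 step up, and ATG13 is above untreated cells at the lower dose and below them at the higher.

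Of the initiation complex, ULK1, its catalytic kinase, had 20.1 and 21.4 CPM untreated, 18.3 and 19.96 CPM with the lower dose and 13.3 and 12.4 CPM with the higher. The higher dose libraries were below all others, a fall of 38.2% from untreated cells (−0.69 ± 0.07, adjusted p = 5.29e-12). The lower dose did not pass (−0.12 ± 0.07, adjusted p = 0.178), and the doses differed (−0.57 ± 0.07, adjusted p = 7.99e-09). RB1CC1, the scaffold FIP200, had 31.6 and 33.4 CPM untreated, 30.1 and 31.5 CPM with the lower dose and 23.8 and 23.2 CPM with the higher, stepping down without overlap. Its fall passed at the higher dose (−0.47 ± 0.06, adjusted p = 3.53e-10) and not at the lower (−0.08 ± 0.05, adjusted p = 0.274). ULK2, a paralog of ULK1, was the least abundant of the 39 per length (0.177 CPM per kb in untreated cells) and had 0.597 to 1.03 CPM over the 6 libraries. No change of ULK2 was detectable at this depth (−0.33 ± 0.32 at the higher dose, adjusted p = 0.396, and 0.03 ± 0.30 at the lower dose, adjusted p = 0.959).

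ATG13, the adaptor that joins ULK1 to RB1CC1, moved in opposite directions. It had 96.9 and 100.1 CPM untreated, 104.5 and 107 CPM with the lower dose and 87.4 and 87.9 CPM with the higher, with no overlap between groups. ATG13 rose at the lower dose (0.10 ± 0.03, adjusted p = 0.0160) and fell at the higher dose (−0.17 ± 0.04, adjusted p = 5.20e-05). The doses differed by −0.27 ± 0.04 (adjusted p = 7.86e-09). The rise did not pass once untreated a (0.08, adjusted p = 0.158) or lower dose b (0.08, adjusted p = 0.154) was left out, nor with DESeq2 (0.10, adjusted p = 0.120). The fall was −0.08 (adjusted p = 0.0408) with trends on transcript length and GC content removed.

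The class III PI3K complex makes the lipid PI3P. Its catalytic subunit PIK3C3 (VPS34) had 43.9 and 45.9 CPM untreated, 39.3 and 40.05 CPM with the lower dose and 31.1 and 30.2 CPM with the higher. These libraries stepped down without overlap, with −0.55 ± 0.05 at the higher dose (adjusted p = 4.84e-14) and −0.18 ± 0.05 at the lower (adjusted p = 0.00245). The lower dose call was lost without untreated b (−0.15, adjusted p = 0.0503) and with DESeq2 (−0.18, adjusted p = 0.0542). Its pseudokinase partner PIK3R4 (VPS15) had 12.8 and 13.5 CPM with the higher dose, against 16.6 and 17.6 CPM untreated (−0.38 ± 0.07, adjusted p = 1.96e-05), and did not pass at the lower dose (15.7 and 15.2 CPM, −0.15 ± 0.07, adjusted p = 0.110). ATG14, the subunit that directs the complex to autophagy, had 16.1 and 18.6 CPM with the higher dose, against 23.4 and 21.0 CPM untreated (−0.35 ± 0.07, adjusted p = 2.95e-05), and 19.4 and 21.6 CPM with the lower dose (−0.11 ± 0.07, adjusted p = 0.230).

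The 3 remaining genes of this role had values near 0 on the log2 scale. BECN1, the scaffold beclin 1, rose by 7.09% at the higher dose, with 88.4 and 89.9 CPM, against 82.2 and 84.3 CPM in untreated cells (0.10 ± 0.04, adjusted p = 0.0190). Leaving out untreated a ended that call (0.08, adjusted p = 0.132), as did leaving out higher dose b (0.09, adjusted p = 0.120) and using DESeq2 (0.10, adjusted p = 0.120). UVRAG, which replaces ATG14 in the endosomal form of the complex, had 32.0 and 32.5 CPM with the higher dose, against 31.8 and 31.2 CPM untreated (0.03 ± 0.06, adjusted p = 0.632), and 28.2 and 32.0 CPM with the lower (−0.07 ± 0.06, adjusted p = 0.402). AMBRA1, a regulator of beclin 1 and ULK1, had −0.07 ± 0.06 at either dose (adjusted p = 0.329 at the higher and 0.395 at the lower).

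The 8 listed genes of lipid transfer, membrane supply and PI3P binding all fell at the higher dose, with log2 fold changes of −0.54 to −0.20. The call of TECPR1 was at the edge of the threshold. ATG2A, a lipid-transfer protein, had 44.7 and 43.0 CPM untreated, 35.4 and 35.6 CPM with the lower dose and 30.5 and 29.7 CPM with the higher. It stepped down without overlap (−0.54 ± 0.05 at the higher dose, adjusted p = 1.11e-13, and −0.30 ± 0.05 at the lower, adjusted p = 1.51e-06). The paralog ATG2B had 11.2 and 10.1 CPM with the higher dose, against 15.6 and 15.3 CPM untreated (−0.53 ± 0.08, adjusted p = 1.14e-07, or −0.35 with the length and GC trends removed), and did not pass at the lower dose (14.6 and 15.0 CPM, −0.06 ± 0.08, adjusted p = 0.613). ATG9A, the scramblase of autophagic vesicles, had 114.0 and 114.5 CPM untreated, 103.5 and 107.2 CPM with the lower dose and 84.3 and 89.3 CPM with the higher. It stepped down without overlap and fell at the higher dose (−0.40 ± 0.04, adjusted p = 3.14e-14) and at the lower (−0.12 ± 0.03, adjusted p = 0.00674). Its lower dose call was lost without lower dose a (−0.09, adjusted p = 0.109), with DESeq2 (−0.12, adjusted p = 0.0643) and after the length and GC correction (−0.05, adjusted p = 0.287).

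The WIPI proteins bind PI3P on the new membrane, and WIPI2 recruits the conjugation machinery to it. WIPI2 had 143 and 143 CPM untreated, 139 and 141 CPM with the lower dose and 103 and 102 CPM with the higher. It was therefore within 1.99% of untreated cells at the lower dose (−0.03 ± 0.03, adjusted p = 0.521) and 28.3% below them at the higher (−0.48 ± 0.03, adjusted p = 1.27e-18). WIPI1 followed the same course, with 80.6 and 75.1 CPM untreated, 76.0 and 77.0 CPM with the lower dose and 57.7 and 56.5 CPM with the higher (−0.45 ± 0.04, adjusted p = 4.70e-14). WDR45 (WIPI4) had 77.3 and 78.4 CPM untreated, 70.3 and 69.2 CPM with the lower dose and 53.3 and 54.2 CPM with the higher. It fell at both doses (−0.53 ± 0.04, adjusted p = 3.07e-17, at the higher and −0.16 ± 0.04, adjusted p = 0.000752, at the lower). WDR45B, a further gene of this family outside the list, rose instead. WDR45B had 163 and 161 CPM untreated, 177 and 183 CPM with the lower dose and 190 and 195 CPM with the higher. Its rise was 0.25 ± 0.03 at the higher dose (adjusted p = 8.27e-10) and 0.15 ± 0.03 at the lower (adjusted p = 0.000105).

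By GENCODE 29, exons of 8 of the 39 genes overlap those of another gene named in the counts, so their counts are uncertain. Overlaps with genes not named there were not looked for. WDR45 shares 25.1% of its exon bases with PRAF2 on the same strand, and PRAF2 did not pass at the higher dose (0.05, adjusted p = 0.263). The other 7 overlap a gene on the opposite strand, and whether strand was used in counting is not given. Of these, WIPI1 shares 28.5% with ARSG (0.35, adjusted p = 0.104), BECN1 23.5% with CNTD1, ATG7 32.2% with VGLL4 and OPTN 3.63% with CCDC3, and none of these partners passed at the higher dose. The partners of 3 genes rose at the higher dose: AP3S1, which shares 8.72% of ATG12 (0.12, adjusted p = 0.00171), THAP4, which shares 6.98% of ATG4B (0.23, adjusted p = 3.43e-06), and PTRH2, which shares 5.97% of VMP1 (0.23, adjusted p = 1.51e-05). VMP1, a scramblase of the endoplasmic reticulum, fell at the higher dose (−0.20 ± 0.03, adjusted p = 1.11e-06). TECPR1, which binds ATG5 conjugates at the lysosome, was at the edge of the threshold (−0.20 ± 0.09, adjusted p = 0.0430). Without untreated b TECPR1 had −0.15 (adjusted p = 0.256), without higher dose a −0.23 (0.0776), without higher dose b −0.17 (0.191), with DESeq2 −0.20 (0.231) and after the length and GC correction −0.04 (0.750).

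Of the 8 conjugation genes, 4 rose and 4 did not pass. ATG7 is the activating enzyme, ATG10 and ATG3 are the conjugating enzymes for ATG12 and for the ATG8 family, ATG12 joined to ATG5 with ATG16L1 acts as the ligase, and ATG4 proteases trim the ATG8 proteins. ATG3 had 59.6 and 57.5 CPM untreated, 69.2 and 66.8 CPM with the lower dose and 73.0 and 77.4 CPM with the higher. It stepped up without overlap, by 28.5% at the higher dose (0.36 ± 0.04, adjusted p = 4.15e-11) and 16.2% at the lower dose (0.22 ± 0.04, adjusted p = 3.06e-05).

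ATG12 had 43.3 and 44.8 CPM untreated, 53.0 and 49.6 CPM with the lower dose and 56.4 and 54.1 CPM with the higher. It rose at the higher dose (0.32 ± 0.05, adjusted p = 1.80e-08) and at the lower (0.22 ± 0.05, adjusted p = 0.000156). ATG5, the partner of ATG12 in the conjugate, had 48.5 and 47.1 CPM untreated, 55.8 and 56.5 CPM with the lower dose and 58.1 and 60.5 CPM with the higher. The rise of ATG5 was of the same order (0.31 ± 0.04, adjusted p = 1.22e-08, at the higher dose and 0.23 ± 0.04, adjusted p = 2.16e-05, at the lower). The protease gene ATG4A had 18.2 and 20.02 CPM untreated, 23.6 and 21.5 CPM with the lower dose and 23.6 and 23.9 CPM with the higher, and it rose at the higher dose (0.31 ± 0.07, adjusted p = 5.69e-05). Its lower dose rise (0.24 ± 0.07, adjusted p = 0.00373) did not pass once untreated a (0.17, adjusted p = 0.0990) or lower dose a (0.17, adjusted p = 0.129) was left out, nor with DESeq2 (0.24, adjusted p = 0.0712).

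The other conjugation genes did not pass at either dose. ATG7 had 19.4 and 21.5 CPM with the higher dose, against 20.7 and 20.4 CPM untreated (−0.01 ± 0.07, adjusted p = 0.919), and 20.7 and 21.1 CPM with the lower (0.02 ± 0.06, adjusted p = 0.812). ATG4B, another protease of this family, had 45.7 and 46.1 CPM with the higher dose, against 44.7 and 45.6 CPM untreated (0.02 ± 0.05, adjusted p = 0.701), and 44.1 and 44.8 CPM with the lower (−0.02 ± 0.05, adjusted p = 0.755). ATG10, at 4.83 to 5.72 CPM over the 6 libraries, had −0.09 ± 0.12 at the higher dose (adjusted p = 0.546). ATG16L1 had 27.2 and 27.3 CPM with the higher dose, against 25.7 and 24.8 CPM untreated (0.11 ± 0.06, adjusted p = 0.0954), and 25.0 and 24.4 CPM with the lower (−0.03 ± 0.06, adjusted p = 0.726). It passed at the higher dose after the length and GC correction (0.19, adjusted p = 0.00270). The standard errors of ATG7 and ATG4B were close to those of the conjugation genes that rose, and that of ATG10 was larger.

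**Figure D3:**
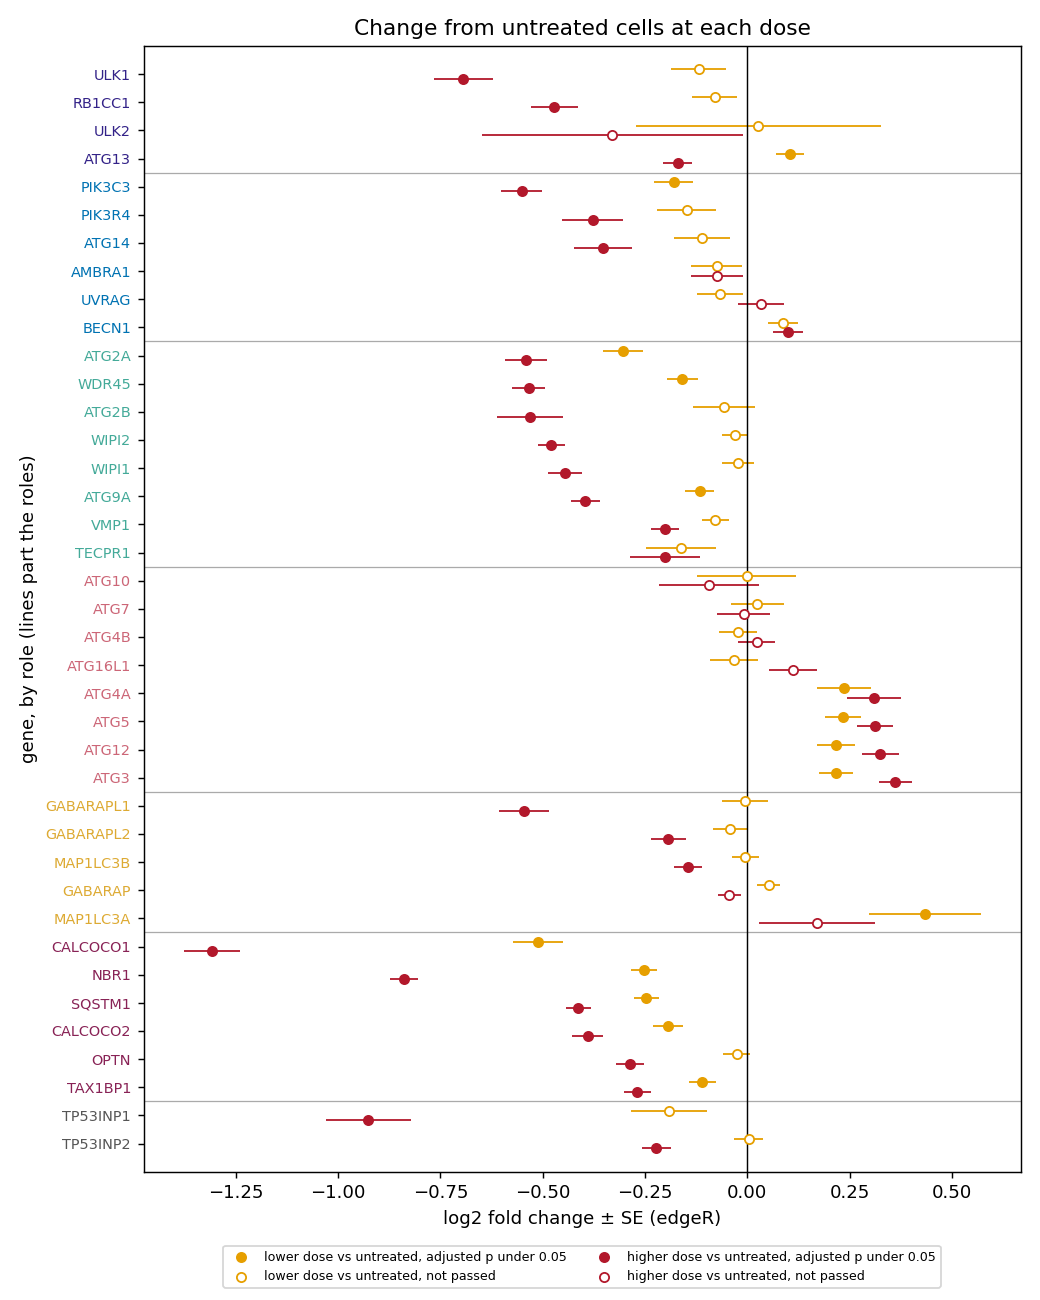
Log2 fold change from untreated cells with its SE for each gene at the lower dose (orange) and the higher dose (red), grouped by role; filled points have an adjusted p under 0.05. The untreated libraries are shared by both comparisons. CALCOCO1 lies farthest left at −1.31, and ATG3, ATG4A, ATG5 and ATG12 lie right of 0 at both doses.

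The ATG8 family comprises the LC3 and GABARAP proteins that are joined to the membrane lipid. GABARAP was the most abundant of the 39 per length, at 509 CPM per kb in untreated cells, and its libraries of the higher dose (369 and 384 CPM) and of untreated cells (380.3 and 395 CPM) overlapped. Its change was −0.04 ± 0.03 (adjusted p = 0.188), and the lower dose libraries had 398 and 407 CPM (0.05 ± 0.03, adjusted p = 0.157). After the length and GC correction GABARAP passed (−0.21, adjusted p = 1.32e-12), as it did without untreated a (−0.07, adjusted p = 0.0446). GABARAPL1, known as a FOXO target in mouse muscle, showed the clearest change of the family. It had 27.4 and 28.4 CPM untreated, 28.02 and 27.6 CPM with the lower dose and 18.6 and 19.7 CPM with the higher. The lower dose overlapped untreated cells (−0.01 ± 0.06, adjusted p = 0.956), and the higher dose was 31.5% below them (−0.55 ± 0.06, adjusted p = 3.70e-11).

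GABARAPL2 (−0.19 ± 0.04, adjusted p = 0.000107) and MAP1LC3B (−0.15 ± 0.03, adjusted p = 0.000251) also fell at the higher dose. For GABARAPL2 the value was −0.37 after the length and GC correction. MAP1LC3B has a near-identical copy, MAP1LC3B2, which held 19.2 to 22.3 CPM beside the 115 to 133 CPM of MAP1LC3B, and reads of the copies may be split between them. MAP1LC3A was scarce, with 3.96 and 3.59 CPM untreated, 4.75 and 5.43 CPM with the lower dose and 3.80 and 4.67 CPM with the higher. It rose at the lower dose (0.43 ± 0.14, adjusted p = 0.0102) and not at the higher (0.17 ± 0.14, adjusted p = 0.320), though the doses were not shown to differ (−0.26 ± 0.13, adjusted p = 0.121). The lower dose call was lost without untreated b (0.36, adjusted p = 0.102), without lower dose b (0.33, adjusted p = 0.139) and with DESeq2 (0.43, adjusted p = 0.146).

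TP53INP1 and TP53INP2 bind ATG8 proteins. TP53INP1 had 9.97 and 10.7 CPM untreated, 9.39 and 8.72 CPM with the lower dose and 5.07 and 5.79 CPM with the higher. The higher dose libraries were far below the rest, a fall of 47.4% from untreated cells (−0.93 ± 0.10, adjusted p = 4.50e-11), and the lower dose did not pass (−0.19 ± 0.09, adjusted p = 0.113). TP53INP2, a cofactor that binds ATG8 proteins in the nucleus and at the autophagosome, had 80.6 and 81.2 CPM with the higher dose, against 96.1 and 92.9 CPM untreated. It fell by 14.3% (−0.22 ± 0.04, adjusted p = 5.68e-07, or −0.10 after the length and GC correction) and at the lower dose had 95.9 and 93.4 CPM, inside the untreated range (0.00 ± 0.04, adjusted p = 0.953).

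At the lower dose 9 of the 39 genes fell (23.1%, where 15.9% of all genes tested fell) and 6 rose (15.4%, where 16.7% of all genes rose). The share with a called fall of at least 0.32 on the log2 scale was 2.56%, which is 1 gene, CALCOCO1, and near the 2.55% of all genes. The 9 that fell were PIK3C3, ATG2A, ATG9A, WDR45 and the receptors SQSTM1, NBR1, CALCOCO1, CALCOCO2 and TAX1BP1, and each of them was lower still at the higher dose than at the lower. The 6 that rose were the conjugation genes ATG3, ATG4A, ATG5 and ATG12, with ATG13 and MAP1LC3A. The median log2 fold change was −0.04.

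Set against the lower dose, the higher dose was lower in 25 genes (64.1%, beside 17.6% of all genes) and higher in 2 (5.13%, beside 16.4%). A called fall of at least 0.32 on the log2 scale was found for 11 (28.2%, beside 4.35% of all genes). Of the 25, 14 had not passed at the lower dose against untreated cells but fell at the higher dose. The share of all genes with this pattern was not computed, so it is not shown to be particular to the autophagy genes. Those 14 were ULK1, RB1CC1, PIK3R4, ATG14, ATG2B, WIPI1, WIPI2, VMP1, GABARAPL1, GABARAPL2, MAP1LC3B, OPTN, TP53INP1 and TP53INP2, and the other 2 of the 25 beyond the 9 above were ATG13 and GABARAP. Among the 14, WIPI2, WIPI1, GABARAPL1, MAP1LC3B, OPTN and TP53INP2 were within 0.03 of 0 on the log2 scale at the lower dose. The 2 that were higher at the higher dose were ATG3 (0.15 ± 0.04, adjusted p = 0.00287) and ATG16L1 (0.14 ± 0.06, adjusted p = 0.0472).

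For the other rising conjugation genes the step between the doses was small: 0.08 ± 0.04 for ATG5 (adjusted p = 0.146), 0.07 ± 0.06 for ATG4A (adjusted p = 0.406) and 0.11 ± 0.04 for ATG12 (adjusted p = 0.0551). ATG12 passed without untreated a (adjusted p = 0.0459), without untreated b (0.0408) and without lower dose a (0.0209), at 0.11, 0.11 and 0.16. The dose call of ATG3 was lost without lower dose b (0.12, adjusted p = 0.0596), without higher dose b (0.10, adjusted p = 0.130) and with DESeq2 (adjusted p = 0.0501), and that of ATG16L1 without any single lower or higher dose library (adjusted p = 0.0908 to 0.219). Among the falls, the dose calls of PIK3R4, ATG14, VMP1, GABARAP and GABARAPL2 each failed to pass without at least 1 library. They were lost without lower dose a for PIK3R4 (−0.21, adjusted p = 0.0930), VMP1 (−0.10, 0.0645) and GABARAPL2 (−0.09, 0.184), and without lower dose b for ATG14 (−0.16, 0.172) and GABARAP (−0.08, 0.0899). Without higher dose a those of PIK3R4 (−0.20, 0.127), ATG14 (−0.14, 0.232) and GABARAP (−0.07, 0.164) were lost, and without higher dose b that of VMP1 (−0.10, 0.0708). DESeq2 did not call PIK3R4 (adjusted p = 0.142), ATG14 (0.0952) or GABARAPL2 (0.0628), nor ATG16L1 (0.240), and the length and GC correction ended the call of PIK3R4 (−0.18, adjusted p = 0.0630).

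In 16 of the 39 genes (41.0%) every lower dose library was below both untreated libraries and every higher dose library was lower again, where 18.0% of all genes tested showed this order. The opposite order, rising without overlap, was found for 4 genes (10.3%), ATG3, ATG4A, ATG5 and ATG12, and for 18.0% of all genes. For ATG4A it rests on 23.593 CPM in higher dose a against 23.588 CPM in lower dose a, and on unscaled library sizes, tried after seeing the data, these libraries overlap (23.515 and 23.555 CPM), leaving 3 genes. Of the cargo receptors, 5 of 6 stepped down in this way, and OPTN was the exception.

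Transcript length moved with the changes. Across the 39 genes, which are not replicates, longer transcripts had lower log2 fold changes at the higher dose (Spearman rho −0.28), as they did across 12956 genes of known length (rho −0.27). The autophagy genes were somewhat longer, with a median of 2874 nt beside 2544 nt for all genes. After smooth trends on length and GC content were taken out of each library, 25 autophagy genes fell (64.1%, beside 25.7% of all genes in that fit) and 6 rose (15.4%, beside 29.0%) at the higher dose, with a median of −0.23. The order of the largest falls became CALCOCO1 (−1.21), TP53INP1 (−0.86), NBR1 (−0.76), GABARAPL1 (−0.71), PIK3C3 (−0.59), WDR45 (−0.56) and ULK1 (−0.56), and ATG3 (0.36), ATG12 (0.30), ATG5 (0.29) and ATG4A (0.29) stayed above untreated cells. At the lower dose GABARAPL2 (−0.17, adjusted p = 0.000229) and VMP1 (−0.09, adjusted p = 0.0278) passed in that fit, beside −0.04 and −0.08 without it. The rising conjugation genes lay at 2222 to 2882 nt, close to the median length.

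**Figure D4:**
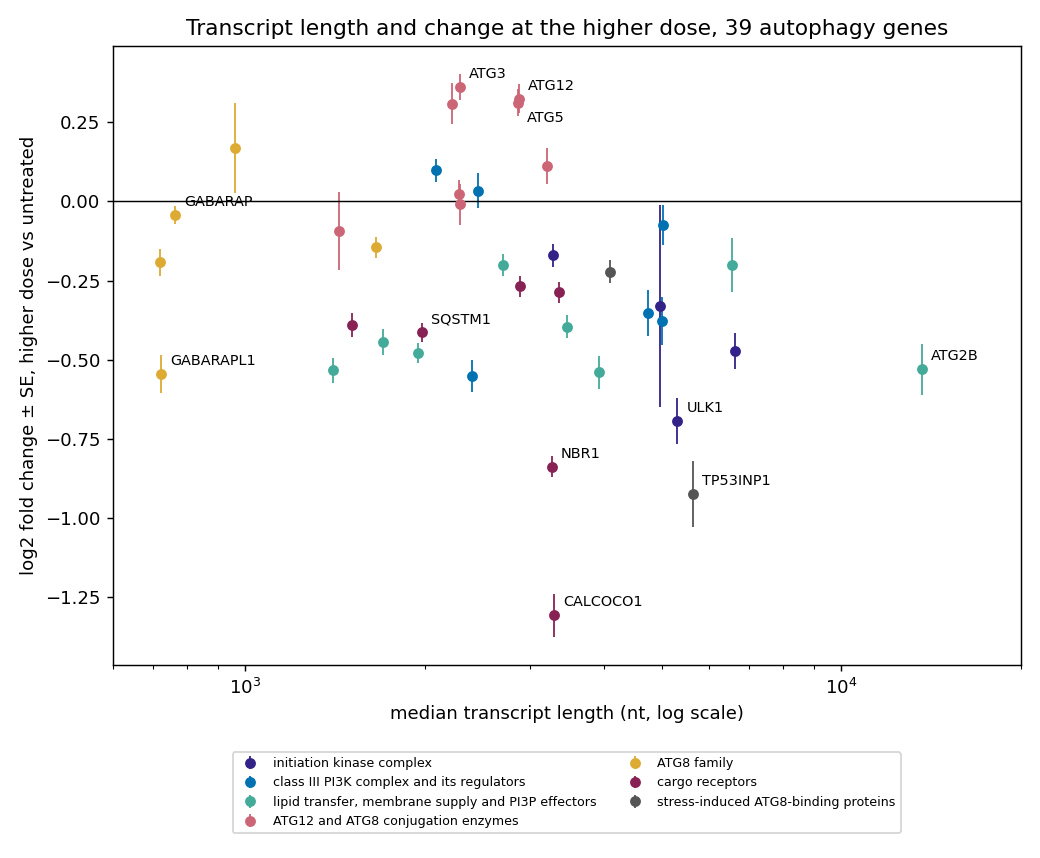
Log2 fold change at the higher dose against untreated cells, with its SE, by median transcript length on a log scale, 1 point per gene and coloured by role. GABARAPL1 is among the shortest transcripts and lies at −0.55, ATG2B is the longest and lies at −0.53, and the rising conjugation genes sit between 2222 and 2882 nt.

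Of 59 further genes of the pathway, 56 were tested, and ATG9B, GABARAPL3 and RETREG1, with 0 to 9 reads per library, were not. At the higher dose 27 fell (48.2%, beside 28.2% of all genes tested) and 11 rose (19.6%, beside 28.1%), with a median log2 fold change of −0.09, and at the lower dose 11 fell (19.6%, beside 15.9% of all genes) and 9 rose (16.1%, beside 16.7%). Genes of autophagosome maturation and fusion fell in 9 of 14 cases and rose in 1, led by FYCO1, an adaptor for transport of autophagosomes (14.9 and 15.7 CPM with the higher dose, against 23.7 and 21.6 CPM untreated, −0.56 ± 0.07, adjusted p = 5.16e-10). VPS33A, a subunit of the tethering complex HOPS, followed (−0.36 ± 0.05, adjusted p = 6.01e-09). Other selective autophagy receptors fell in 7 of 14 cases and rose in 3. The endoplasmic reticulum receptor CCPG1 (4.36 and 5.06 CPM, against 8.45 and 7.85 CPM in untreated cells, −0.79 ± 0.11, adjusted p = 3.60e-08) and the ferritin receptor NCOA4 (138 and 136 CPM, against 178 and 173 CPM in untreated cells, −0.36 ± 0.03, adjusted p = 1.18e-14) changed most.

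Among 17 upstream regulators 9 fell at the higher dose (52.9%, beside 28.2% of all genes tested) and 2 rose (11.8%, beside 28.1%). The largest changes were those of FOXO1, a transcription factor of autophagy genes (3.12 and 2.39 CPM with the higher dose, against 4.83 and 4.48 CPM untreated, −0.75 ± 0.15, adjusted p = 2.21e-05), and MITF, a relative of TFEB (−0.49 ± 0.06, adjusted p = 1.48e-10). TFEB itself fell (−0.44 ± 0.18, adjusted p = 0.0348). The more abundant relatives FOXO3 (24.3 CPM in untreated cells, 0.05 ± 0.06, adjusted p = 0.517) and TFE3 (102 CPM, 0.07 ± 0.03, adjusted p = 0.0922) did not pass. At the lower dose TFE3 rose (0.10 ± 0.03, adjusted p = 0.0201). Of 11 other core genes tested, 5 rose at the higher dose (45.5%, beside 28.1% of all genes) and 2 fell (18.2%, beside 28.2%). The rises were those of ATG4C, ATG4D, ATG101, WDR45B and NRBF2. ATG4C, a further protease of the ATG4 family, rose (23.5 and 25.3 CPM with the higher dose, against 16.9 and 18.4 CPM untreated, 0.46 ± 0.07, adjusted p = 2.28e-08), and ZFYVE1, a PI3P-binding protein of the site where autophagosomes form, fell (−0.46 ± 0.06, adjusted p = 6.89e-09). Of the 8 genes with the largest called changes in their groups, FYCO1 (−0.43), VPS33A (−0.21), CCPG1 (−0.39), NCOA4 (−0.18), FOXO1 (−0.53) and MITF (−0.17) also fell at the lower dose. ATG4C rose there (0.22). These calls had adjusted p of 0.0157 or less, while ZFYVE1 did not pass (−0.07, adjusted p = 0.390).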

How the data were processed

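Polyadenylated RNA from GFP pull-downs was sequenced in 6 libraries. The authors deposited raw, whole-number counts per gene. HTSeq, TopHat 1.4.0, CASAVA 1.8.1 and the hg19 build stand in the submitters' processing notes, and for annotation, counting mode and strand setting the sources used here give nothing. The 5 summary lines of each file (9.40% to 10.2% of its reads) were left out.

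Replicates differed by more than counting noise (chi-square per degree of freedom 1.52 to 1.98), so each counted as 1 sample. The labels call them biological, and p-values measure only the spread between these libraries. edgeR 4.0.16 in R 4.3.3 (TMM, filterByExpr, robust quasi-likelihood F test, two-sided) fitted all 6 libraries with 3 group means. Adjusted p-values are Benjamini-Hochberg over the 13548 genes tested, with a threshold of 0.05. TMM takes most genes as unchanged, so changes are relative to other genes. SE was taken as the size of the log2 fold change divided by the root of its F statistic. The biological coefficient of variation was 1.79%, so small changes pass. Functions were tested on simulated counts.

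Transcript lengths and GC content are medians over GENCODE 29 basic transcripts, known for 95.6% of genes tested. Alternatives were DESeq2 1.42.0, RLE factors, no filter, leaving out each library, a replicate block, the 2 groups alone, and per-library length and GC trends (mgcv 1.9.3) as offsets. Library values were given in full for members with a called change of at least 0.32 on the log2 scale at either dose or with opposite signs at the doses, and for some others chosen after their values were seen. Of the further pathway genes, the 2 with the largest called change in each group were named, and some others were added after their values were seen. RefSeq promoter windows (GRCh38.p14) matched 34 of the 39 genes. Members and lists were chosen with earlier results of these data known.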

Additional observations from a re-analysis of the deposited data

Results flagged for a closer look

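ATG13 was singled out because every lower dose library lay above both untreated libraries and every higher dose library lay below them, and the difference between the doses passed the test (log2 fold change −0.27, higher dose against lower dose, adjusted p = 7.86e-09). Over the 13 alternatives this difference ranged from −0.29 to −0.23. Because ATG13 was chosen for this order in the same libraries, the difference is no separate support for it. The share of all genes with this order was not computed. The lower dose rise of ATG13 did not pass with DESeq2 (0.10, adjusted p = 0.120). That rise was 0.08 without untreated a and 0.08 without lower dose b.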

How the results depend on the processing

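Of the 30 calls at the higher dose against untreated cells, 28 held under every alternative, as did 9 of 15 at the lower dose and 20 of 27 between the doses. The report names the exceptions. The replicate letters a and b did not pair the libraries (correlations of same-letter deviations −0.045 to 0.00254), and with a replicate block 30 genes were called at the higher dose, 15 at the lower and 26 between the doses, where 1 rose. Where a library was left out, the lone library of its group was assumed to vary like the others. The cause of the shifts was not tested.

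DESeq2 called 3 rises at the lower dose, where edgeR called 6, and 0 between the doses, where edgeR called 2. At an unadjusted p under 0.05 the rises between the doses were 1 with DESeq2 and 3 with edgeR. DESeq2 called 7 of the further pathway genes at the lower dose and 12 between the doses, and 2543 and 2759 of all genes, beside 4418 and 4612 with edgeR, and gave ULK2 no adjusted p in those comparisons. Without a filter 1 rise was called between the doses. With length and GC offsets, alone or with the replicate block, the median over the 39 genes came to −0.23 for the higher dose and −0.19 between the doses. Leaving out each library gave medians of −0.30 to −0.23 at the higher dose, −0.075 to −0.037 at the lower and −0.23 to −0.18 between the doses, 0 to 3 rises between the doses, and 11 to 20 further pathway genes at the lower dose and 15 to 24 between the doses.

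Sign changes arose in 39 values, none called under either setting. With the offsets alone and with the block as well, AMBRA1 had 0.072 and 0.071 and ATG7 0.028 and 0.029 for the higher dose. For the lower dose AMBRA1 had 0.0091 and 0.0085, ATG2B 0.050 and 0.049, ATG4B 0.015 and 0.016, ATG16L1 0.0035 and 0.0029, and GABARAP −0.061 and −0.061, and between the doses TECPR1 had 0.010 and 0.010. ATG10 had 0.00022 at the lower dose with the block, and AMBRA1 −0.00034 between the doses in the fit of 2 groups. Leaving out libraries spanned −0.085 to 0.061 for ATG7 at the higher dose. At the lower dose it spanned −0.078 to 0.024 for WIPI1, −0.11 to 0.020 for GABARAPL2, −0.053 to 0.037 for MAP1LC3B, −0.073 to 0.014 for OPTN, −0.22 to 0.28 for ULK2, −0.084 to 0.076 for ATG10, −0.035 to 0.022 for GABARAPL1, −0.024 to 0.025 for TP53INP2 and −0.16 to 0.021 for UVRAG. Between the doses it spanned −0.029 to 0.030 for AMBRA1, −0.020 to 0.044 for BECN1 and −0.11 to 0.037 for ATG7.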
